A study of Mus musculus with 18 samples.

Results

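The 8 genes of fatty acid binding and transport described here were measured in the liver of wild-type mice, of mice that lack lysosomal acid lipase and of such mice after gene transfer. They are Fabp1, Fabp2, Fabp4, Fabp5 and Fabp7 of the fatty acid binding protein family and Slc27a1, Slc27a2 and Slc27a4 of the fatty acid transport protein family. They were taken by symbol from the deposited table of estimated read counts, which lists 35441 genes, and each symbol matched 1 row. All 8 passed the filter of more than 100 reads summed over the 18 mice, as did 14533 genes in all.

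Lysosomal acid lipase, the product of Lipa, releases free fatty acids and cholesterol from cholesteryl esters and triglycerides in the lysosome. Fatty acid binding proteins are small cytosolic proteins that hold fatty acids in a barrel-shaped pocket and carry them between membranes, enzymes and nuclear receptors. Fatty acid transport proteins are membrane proteins that raise fatty acid uptake, and most of them also activate fatty acids to acyl-CoA. Hepatocytes use Fabp1 (liver type), Slc27a2 (FATP2) and Slc27a5 (FATP5), whereas Fabp4 and Fabp5 are best known from adipocytes, macrophages and epidermis, Fabp2 from the intestine and Fabp7 from glia.

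Liver RNA of 18 male mice was sequenced after poly-A selection, with 3 mice in each of 6 groups. Wild-type littermates (WT), Lipa-/- mice and rAAV8-treated Lipa-/- mice were sampled at 12-weeks and at 34-weeks after injection, which the labels give as 3 and 8 months. Both Lipa-/- groups carried a deletion of exon 4 of Lipa made with a Cre transgene under the CMV promoter on a C57/BL6N background, and all mice ate standard chow. The treated mice received rAAV8 with human LIPA cDNA under the hAAT promoter, which is active in hepatocytes, by tail vein at 10 to 12 weeks of age. The WT and Lipa-/- mice carry the treatment label none. Most untreated Lipa-/- mice did not survive to the later time point and were killed at ethical endpoints, so the exact age of the 3 mice labelled 34-weeks in that group is not given. All mice of the later time point carry 1 study code and all mice of the earlier time point another, except 1 Lipa-/- mouse at 12-weeks (mouse 5) with a code of its own, so time point and study code cannot be told apart.

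Depth ran from 17527800 to 25833100 assigned reads per mouse. Levels are given as normalised read counts (CPM, reads of a gene scaled to a fixed library total) after trimmed mean (TMM) scaling when a gene is compared between mice, and as TPM, the same kind of share per transcript length, when genes are compared with each other. Mouse Lipa stood between 201.9 and 323.4 CPM in WT mice and between 16.7 and 37.0 CPM in both Lipa-/- groups. The human LIPA transgene stood between 522.9 and 2746 CPM in treated mice and at 0.906 CPM or less in the others. Summed TPM of 12 hepatocyte markers ranged from 66315 to 86112 in WT mice, from 37081 to 72730 in Lipa-/- mice and from 33037 to 92678 in treated mice, and the lowest value was that of treated mouse 10 at 12-weeks. TMM factors ran from 0.587, in the same treated mouse, to 1.69. With scaling to total counts instead, the median log2 fold change over the tested genes shifted by 0.47 at 12-weeks and 0.63 at 34-weeks between Lipa-/- and WT mice, by -0.39 and 0.08 between treated and WT mice, and by -0.87 and -0.54 between treated and Lipa-/- mice. It raised the share of higher calls between Lipa-/- and WT mice from 69.1% to 87.2% and from 56.6% to 81.8%. Between treated and WT mice that share was 53.1% with TMM and 24.4% with total counts at 12-weeks, against 59.4% and 70.8% at 34-weeks. It changed between treated and Lipa-/- mice from 39.0% to 8.92% and from 40.8% to 18.5%. Changes below are relative to the TMM scale.

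In the GRCm39 annotation, Fabp1 lies on the plus strand of chromosome 6 (71176809 to 71182016, 4 exons) and Fabp2 on the plus strand of chromosome 3 (122688721 to 122693155, 4 exons). Fabp5 (10077602 to 10081674, plus strand) and Fabp4 (10268785 to 10273737, minus strand) lie on chromosome 3 with 187110 bases between them, a stretch that holds 4 protein-coding genes, among them the family members Pmp2 and Fabp9. Fabp7 lies on the plus strand of chromosome 10 (57660956 to 57664554), and Slc27a1 on the plus strand of chromosome 8 (72021095 to 72041866, 13 exons). Slc27a2 (126394327 to 126430166, 10 exons) and Slc27a4 (29692598 to 29710004, 13 exons) both lie on the plus strand of chromosome 2.

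Fabp1, Fabp2 and Slc27a2 were lower together in Lipa-/- mice and higher together in treated mice, so the 250 bases before the start site of these genes are printed here. They are RefSeq promoter sequences of build GRCm38.p6, read on the plus strand, and 6 of the 8 genes had an entry in that table. Capitals mark matches to AGGNCANAGGNCA, a direct repeat of the nuclear receptor hexamer spaced by 1 base, and to the TATA box TATAAA. The motifs were chosen after the sequences had been read, and both strands were searched.
Fabp1, chr6:71199629-71199878: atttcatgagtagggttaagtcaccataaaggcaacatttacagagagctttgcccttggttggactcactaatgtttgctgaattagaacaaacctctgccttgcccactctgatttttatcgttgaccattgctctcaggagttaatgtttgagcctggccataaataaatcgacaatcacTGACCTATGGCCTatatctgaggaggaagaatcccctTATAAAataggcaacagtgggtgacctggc
Fabp2, chr3:122894822-122895071: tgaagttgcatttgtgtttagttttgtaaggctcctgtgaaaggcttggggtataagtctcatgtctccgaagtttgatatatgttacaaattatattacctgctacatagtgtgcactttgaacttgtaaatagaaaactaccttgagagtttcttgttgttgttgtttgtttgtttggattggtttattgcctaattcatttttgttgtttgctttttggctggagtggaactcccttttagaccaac
Slc27a2, chr2:126552774-126553023: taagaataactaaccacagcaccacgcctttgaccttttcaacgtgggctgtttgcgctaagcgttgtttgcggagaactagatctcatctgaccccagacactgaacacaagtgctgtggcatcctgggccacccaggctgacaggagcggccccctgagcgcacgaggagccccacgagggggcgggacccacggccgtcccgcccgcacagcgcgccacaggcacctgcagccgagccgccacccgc

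The Fabp1 window held the direct repeat on the opposite strand (TGACCTATGGCCT) at positions -67 to -55 from the start site and TATAAA at -30 to -25. Of 32851 promoter windows of this length, 0.338% held the repeat and 12.4% held TATAAA on either strand, and Fabp1 was the only gene of the 6 with a match to either. Because the motifs were chosen after these sequences had been read, the shares do not measure how unusual the Fabp1 matches are. The single hexamer AGGTCA, which can overlap the repeat, was found in 14.0% of all windows and 4 times in the windows of Fabp1, Slc27a2 and Fabp7. The GC box GGGCGG was found in 32.7% of all windows and in those of Slc27a1, Slc27a2 and Slc27a4. The Slc27a2 window was 64.0% G and C with 19 CpG dinucleotides, against 42.8% with 2 for Fabp1 and 35.6% with 1 for Fabp2.

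Lipa-/- livers were compared with WT livers to describe how the 8 genes stood without the lipase. At 12-weeks, Fabp4, Fabp5, Fabp7 and Slc27a1 were higher and Fabp1, Fabp2 and Slc27a2 lower in Lipa-/- mice. A gene was called when its adjusted p was below 0.05 in edgeR's quasi-likelihood test and its absolute log2 fold change exceeded 1. By that rule 4 of the 8 were higher and 3 lower, in a comparison in which 20.2% of all genes tested were called higher and 9.06% lower. At 34-weeks Fabp4, Fabp5 and Slc27a1 were higher and Fabp1, Fabp2 and Slc27a2 lower, which makes 3 and 3 of 8, against 20.5% and 15.7% of all genes.

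**Figure D1:**
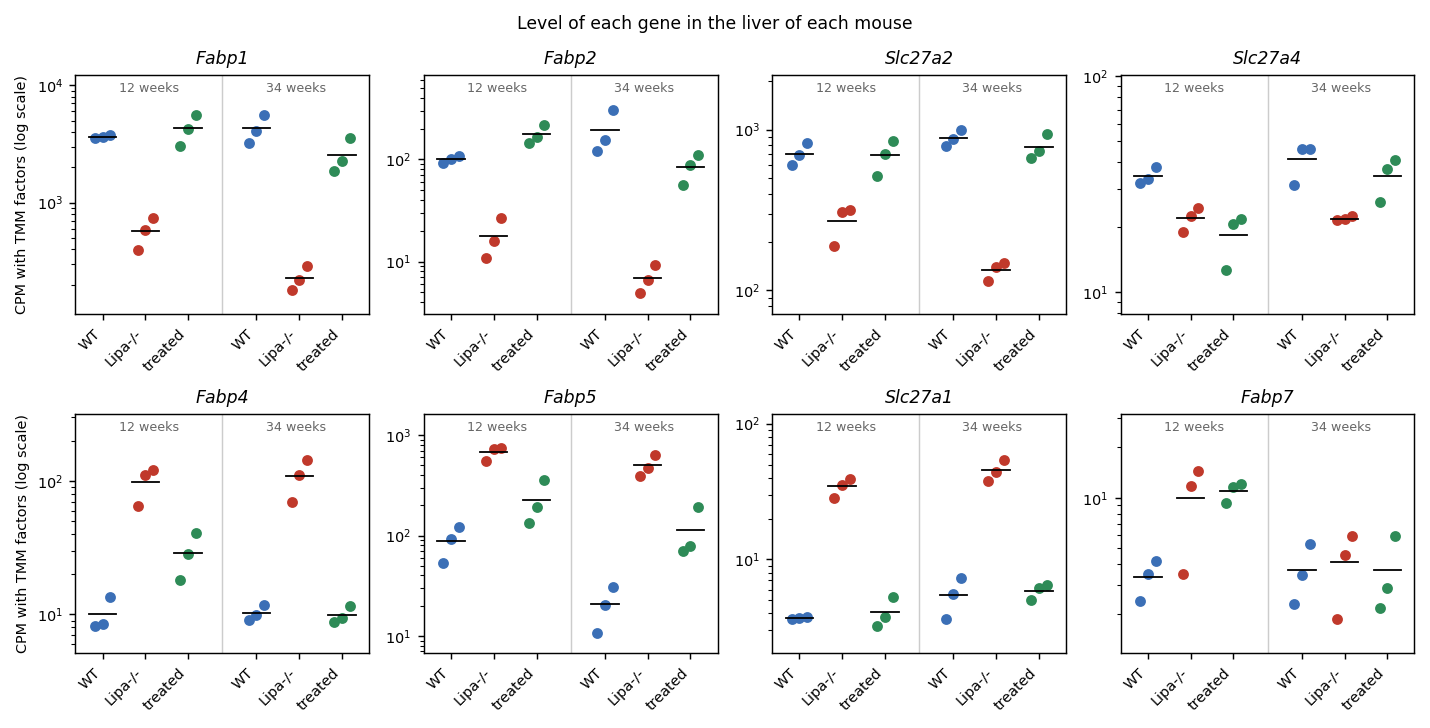
Level of each of the 8 genes in every mouse, in TMM-scaled CPM on a log axis, with 1 point per mouse and a bar at each group mean. The Lipa-/- mice lie below all WT mice for Fabp1, Fabp2, Slc27a2 and Slc27a4 and above all WT mice for Fabp4, Fabp5 and Slc27a1 at both time points.

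Fabp1, the main fatty acid binding protein of the hepatocyte cytosol, stood at 3557, 3631 and 3754 CPM in the WT mice at 12-weeks and at 391.8, 588.9 and 738.5 CPM in the Lipa-/- mice. At 34-weeks the WT mice held 3246, 4062 and 5600 CPM and the Lipa-/- mice 180.5, 219.4 and 291.3 CPM. The groups were far apart at both time points, and the highest Lipa-/- mouse lay well under the lowest WT mouse. Fabp1 was 6.37-fold lower at 12-weeks (log2 fold change -2.67, SE 0.352, adjusted p = 1.76e-05) and 18.7-fold lower at 34-weeks (-4.22, SE 0.377, adjusted p = 3.33e-07).

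Fabp2, the intestinal type, which is also transcribed in liver, stood at 91.4, 100.5 and 108.9 CPM in WT mice at 12-weeks and at 10.9, 15.8 and 26.6 CPM in Lipa-/- mice. At 34-weeks it stood at 121.3, 153.8 and 307.0 CPM in WT mice and at 4.92, 6.61 and 9.15 CPM in Lipa-/- mice. No Lipa-/- mouse reached the range of WT mice. Fabp2 was 5.64-fold lower at 12-weeks (log2 fold change -2.50, SE 0.386, adjusted p = 8.44e-05) and 28.1-fold lower at 34-weeks (-4.81, SE 0.430, adjusted p = 3.33e-07). Summed TPM of 8 markers of enterocytes, where Fabp2 is best known, ranged from 219.8 to 1513 in WT mice and from 417.2 to 800.6 in Lipa-/- mice. Apoa4, which hepatocytes also express, and Anpep led these sums, while the defining markers Cdx2 and Sis were at 0 and at 0.164 TPM or less in every mouse. Of the 3 markers tested, 2 were called higher in Lipa-/- mice at 12-weeks, and 2 higher and 1 lower at 34-weeks. The part of these cells in Fabp2 was not tested.

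Slc27a2, which takes up long-chain fatty acids and activates very long-chain ones, stood at 599.7, 693.3 and 824.9 CPM in WT mice at 12-weeks and at 189.7, 309.2 and 316.0 CPM in Lipa-/- mice. At 34-weeks the values were 787.1, 867.7 and 1000.2 CPM in WT mice and 114.1, 140.1 and 148.0 CPM in Lipa-/- mice. The groups did not overlap, and the step was smaller than that of Fabp1 or Fabp2. Slc27a2 was 2.60-fold lower at 12-weeks (log2 fold change -1.38, SE 0.256, adjusted p = 0.000441) and 6.60-fold lower at 34-weeks (-2.72, SE 0.268, adjusted p = 7.15e-07). With total counts in place of TMM its difference at 12-weeks was -0.92, under the fold threshold. In bulk liver, fewer cells of a type and less RNA per cell cannot be told apart, and of the 12 hepatocyte markers 6 were called lower at 12-weeks and 10 at 34-weeks in Lipa-/- mice, with none called higher. The part of hepatocyte content in the lower Fabp1, Fabp2 and Slc27a2 was not tested.

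Slc27a4, a transport protein of the endoplasmic reticulum that activates long and very long-chain fatty acids, moved less. It stood at 32.2, 33.4 and 38.0 CPM in WT mice and at 19.0, 22.6 and 24.5 CPM in Lipa-/- mice at 12-weeks, and at 31.4, 46.2 and 46.4 against 21.6, 21.9 and 22.5 CPM at 34-weeks. All Lipa-/- mice lay under all WT mice, yet both differences stayed under the fold threshold. The log2 fold change was -0.65 (SE 0.225, adjusted p = 0.0303) at 12-weeks and -0.91 (SE 0.225, adjusted p = 0.00314) at 34-weeks. Without WT mouse 1 of the later time point it reached -1.07 and passed.

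Fabp4, the adipocyte and macrophage type, stood at 8.20, 8.48 and 13.5 CPM in WT mice at 12-weeks and at 64.9, 110.8 and 121.5 CPM in Lipa-/- mice. At 34-weeks it stood at 9.10, 9.93 and 11.7 CPM in WT mice and at 69.3, 110.8 and 145.2 CPM in Lipa-/- mice. The lowest Lipa-/- mouse lay above every WT mouse at both time points. Fabp4 was 9.84-fold higher at 12-weeks (log2 fold change 3.30, SE 0.351, adjusted p = 2.02e-06) and 10.6-fold higher at 34-weeks (3.40, SE 0.352, adjusted p = 1.13e-06).

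Fabp5, the epidermal type, which macrophages also express, stood at 53.0, 91.5 and 122.6 CPM in WT mice at 12-weeks and at 548.4, 727.2 and 741.3 CPM in Lipa-/- mice. At 34-weeks the WT mice held 10.8, 20.2 and 30.8 CPM and the Lipa-/- mice 390.4, 470.5 and 635.1 CPM. The groups did not overlap. The gene was 7.55-fold higher at 12-weeks (log2 fold change 2.92, SE 0.484, adjusted p = 0.000162) and 24.3-fold higher at 34-weeks (4.60, SE 0.524, adjusted p = 2.93e-06). Of the 31-base words in its annotated transcripts, 8.48% also occur in other genes, and its 5 pseudogenes in the table held at most 6.38 reads in any mouse.

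Slc27a1, the transport protein best known from muscle and adipose tissue, was scarce in WT liver, at 3.66, 3.70 and 3.78 CPM at 12-weeks and at 3.66, 5.61 and 7.25 CPM at 34-weeks. In Lipa-/- mice it stood at 28.5, 35.6 and 39.4 CPM and at 38.1, 44.1 and 53.7 CPM. The groups were well separated, with an SD of 5.51 CPM among the Lipa-/- mice at 12-weeks and of 7.88 CPM at 34-weeks. Slc27a1 was 9.28-fold higher at 12-weeks (log2 fold change 3.21, SE 0.259, adjusted p = 1.38e-07) and 8.18-fold higher at 34-weeks (3.03, SE 0.254, adjusted p = 1.87e-07), the smallest adjusted p of the 8 genes in either comparison.

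Markers of other cells moved beside Fabp4, Fabp5 and Slc27a1. Summed TPM of 12 macrophage and Kupffer cell markers ranged from 97.5 to 406.3 in WT mice and from 3128 to 7334 in Lipa-/- mice, with 9 called higher and 1 lower at 12-weeks and 7 higher and 2 lower at 34-weeks. Lyz2 led the sums in Lipa-/- mice, at means of 4415 and 3472 TPM against 40.6 and 91.3 TPM in WT mice. Clec4f was lower in Lipa-/- mice, at 32.5 and 29.8 TPM against 53.5 and 89.0 TPM. Summed TPM of 8 markers of lipid-associated macrophages ranged from 47.4 to 89.3 in WT mice and from 3626 to 9012 in Lipa-/- mice, and all 8 were called higher at both time points. Summed TPM of 7 neutrophil markers ranged from 3.53 to 14.2 in WT mice and from 456.4 to 5713 in Lipa-/- mice. Summed TPM of 10 stellate cell and myofibroblast markers ranged from 48.2 to 127.9 in WT mice and from 305.9 to 1201 in Lipa-/- mice, with 7 called higher and 1 lower at 12-weeks and 8 higher and 2 lower at 34-weeks. That of 8 cholangiocyte markers ranged from 21.3 to 53.3 in WT mice and from 412.5 to 2645 in Lipa-/- mice, led by Spp1, which is also among the lipid-associated macrophage markers, and 3 and 6 of them were called higher. Summed TPM of 10 liver endothelial cell markers ranged from 92.8 to 146.3 in WT mice and from 92.2 to 253.3 in Lipa-/- mice. Of these markers 2 were called higher and 4 lower at each time point. The part of all these cells in the higher Fabp4, Fabp5 and Slc27a1 was not tested. Summed TPM of 7 adipocyte markers ranged from 3.75 to 89.1 in WT mice, led at 34-weeks by Cidea, and from 5.18 to 12.3 in Lipa-/- mice. Of the 3 tested, none was called at 12-weeks and 1 was called lower at 34-weeks. Lep was at 0 in every mouse and Adipoq at 0.718 TPM or less. The part of adipocytes was not tested either.

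Fabp7, the brain type, was close to the low end of the count range, with 46 to 372 reads per mouse. It stood at 2.41, 3.48 and 4.16 CPM in WT mice and at 3.52, 11.8 and 14.5 CPM in Lipa-/- mice at 12-weeks, so 1 Lipa-/- mouse fell within the WT range. It was called 2.95-fold higher (log2 fold change 1.56, SE 0.510, adjusted p = 0.0221). The call was lost without WT mouse 1 or 3 or without Lipa-/- mouse 5 or 8, with adjusted p between 0.0575 and 0.104. At 34-weeks it stood at 2.30, 3.47 and 5.25 CPM in WT mice and at 1.87, 4.56 and 5.93 CPM in Lipa-/- mice. The groups overlapped throughout, with a log2 fold change of 0.18 (95% confidence interval -0.89 to 1.24, adjusted p = 0.799), and the direction turned without WT mouse 3 (-0.07) or Lipa-/- mouse 4 (-0.15). Summed TPM of 7 glia and Schwann cell markers ranged from 0.993 to 2.63 in WT mice and from 2.71 to 8.20 in Lipa-/- mice, led there by Mbp, and of the 4 tested 1 was called higher and 1 lower at each time point. Sox10, the defining glial transcription factor among them, was at 0.0959 TPM or less in every mouse. Of the 12 macrophage and Kupffer cell markers, 9 were called higher and 1 lower at 12-weeks, and 7 higher and 2 lower at 34-weeks. Cd5l of this list is 1 of the 2 genes nearest to Fabp7 in the search given below. It averaged 20.8 TPM in WT and 94.7 TPM in Lipa-/- mice at 12-weeks, and 46.3 and 95.5 TPM at 34-weeks. Clec4f of the same list went the other way, at 53.5 and 32.5 TPM and at 89.0 and 29.8 TPM. So did Timd4, at 1.48 and 0.159 TPM and at 3.22 and 0.377 TPM. The part of glia, Schwann cells, macrophages or Kupffer cells in Fabp7 was not tested.

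**Figure D2:**
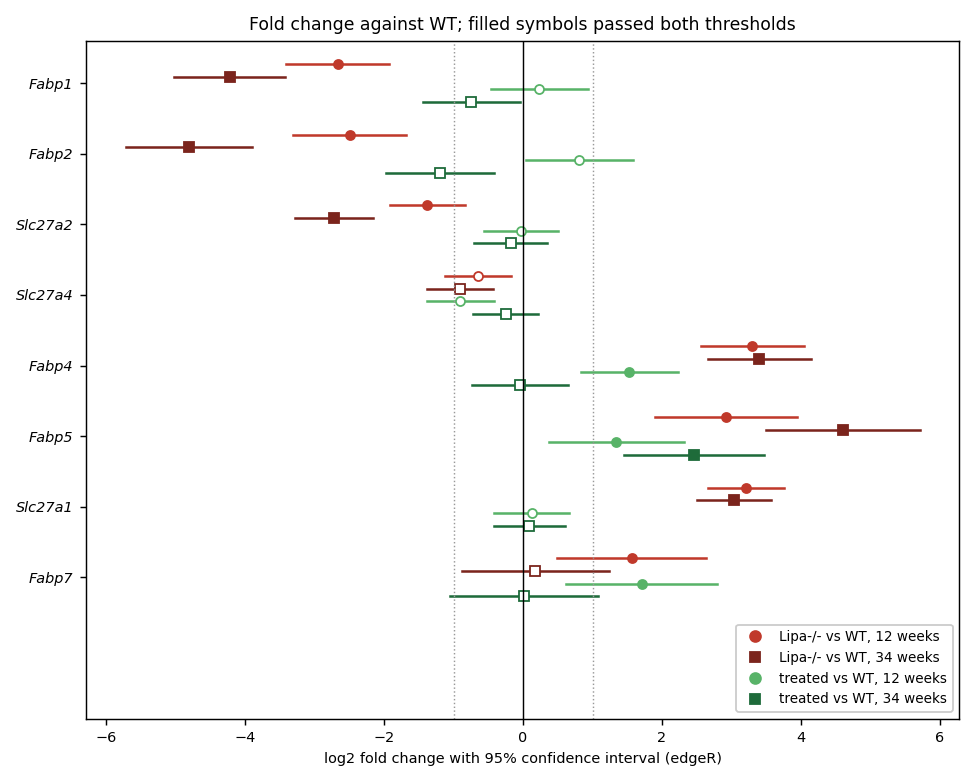
Log2 fold change of the 8 genes against WT mice, in Lipa-/- and in treated mice at both time points, with 95% confidence intervals; filled symbols passed both thresholds and dotted lines mark -1 and 1. Fabp1 and Fabp2 lie at -4.22 and -4.81 in Lipa-/- mice at 34-weeks, and among treated mice at 34-weeks the Fabp5 symbol at 2.46 is the only filled one.

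Treated mice were compared with untreated Lipa-/- mice to describe the genes after gene transfer. At both time points Fabp1, Fabp2 and Slc27a2 were higher and Fabp4, Fabp5 and Slc27a1 lower in treated mice, 3 and 3 of 8 genes, where 16.2% of all genes were called higher and 25.3% lower at 12-weeks and 12.8% and 18.6% at 34-weeks. These comparisons share the Lipa-/- mice with those above, so opposite signs are in part built in. Of the 12 hepatocyte markers 6 were called higher after treatment at the earlier time point and 9 at the later, with none lower. All 8 lipid-associated macrophage markers were called lower at both time points, and of the 12 macrophage and Kupffer cell markers 7 were lower at each, with 2 and 1 higher. Of the 10 stellate cell and myofibroblast markers 5 and 8 were lower, with 1 and 2 higher. The part of these cells in the differences of the 8 genes was not tested. Fabp7 was called at neither time point, with log2 fold changes of 0.15 (95% confidence interval -0.89 to 1.19, adjusted p = 0.815) and -0.17 (-1.23 to 0.90, adjusted p = 0.821). At 12-weeks Fabp7 turned to -0.73 with total counts, and it turned to -0.26 without Lipa-/- mouse 9.

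Fabp1 in treated mice stood at 3039, 4257 and 5555 CPM at 12-weeks and at 1854, 2269 and 3582 CPM at 34-weeks, above every untreated Lipa-/- mouse. It was 7.48-fold higher at 12-weeks (log2 fold change 2.90, SE 0.355, adjusted p = 1.20e-05) and 11.1-fold higher at 34-weeks (3.48, SE 0.364, adjusted p = 2.21e-06). Fabp2 stood at 146.0, 165.2 and 216.2 CPM and at 56.2, 87.3 and 110.1 CPM. It was 9.89-fold higher (log2 fold change 3.31, SE 0.399, adjusted p = 1.09e-05) and 12.3-fold higher (3.62, SE 0.407, adjusted p = 4.23e-06). Both genes thus lay above the untreated mice in all 6 treated mice.

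Slc27a2 in treated mice stood at 516.3, 701.5 and 852.6 CPM at 12-weeks and at 670.1, 737.6 and 933.5 CPM at 34-weeks. It was 2.54-fold higher than in untreated Lipa-/- mice at 12-weeks (log2 fold change 1.35, adjusted p = 0.000452) and 5.82-fold higher at 34-weeks (2.54, adjusted p = 2.22e-06). The difference at 12-weeks depended on scaling: it was 0.48 with total counts and 0.13 on the log2(TPM + 0.1) scale, not called with either. Slc27a4 stood at 12.7, 20.8 and 21.8 CPM at 12-weeks and at 26.1, 37.1 and 41.1 CPM at 34-weeks. Its log2 fold change was -0.25 (95% confidence interval -0.73 to 0.22, adjusted p = 0.352) and 0.66 (adjusted p = 0.0260), and with total counts the earlier value was -1.11 and called lower.

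Fabp4 in treated mice stood at 18.02, 28.3 and 40.9 CPM at 12-weeks and at 8.83, 9.39 and 11.6 CPM at 34-weeks. It was 3.41-fold lower than in untreated Lipa-/- mice at 12-weeks (log2 fold change -1.77, SE 0.330, adjusted p = 0.000379) and 10.9-fold lower at 34-weeks (-3.45, SE 0.353, adjusted p = 1.84e-06). Fabp5 stood at 133.3, 190.5 and 353.5 CPM and at 69.6, 78.3 and 190.9 CPM. It was 2.98-fold lower (log2 fold change -1.57, adjusted p = 0.00905) and 4.41-fold lower (-2.14, adjusted p = 0.00154). Slc27a1 stood at 3.26, 3.76 and 5.25 CPM and at 5.06, 6.17 and 6.46 CPM, and was 8.51-fold lower (log2 fold change -3.09, adjusted p = 5.85e-07) and 7.68-fold lower (-2.94, adjusted p = 4.73e-07).

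The comparison of treated with WT mice gave the distance that remained. At 12-weeks Fabp4, Fabp5 and Fabp7 were called higher and none of the 8 lower in treated mice, against 13.6% of all genes called higher and 12% lower. At 34-weeks Fabp5 alone was called higher and none lower, where 0.131% of all genes were called higher and 0.0895% lower. Beside these, 5 of the 8 genes had an unadjusted p below 0.05 at 12-weeks and 3 at 34-weeks, and DESeq2 called 3 and 1. The shares of all genes above are of edgeR calls, and none are given for unadjusted p or DESeq2.

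Fabp5 was 2.54-fold higher than in WT mice at 12-weeks (log2 fold change 1.34, SE 0.459, adjusted p = 0.0318) and 5.50-fold higher at 34-weeks (2.46, SE 0.478, adjusted p = 0.0478). In CPM all treated mice lay above all WT mice at both time points. In TPM the groups overlapped at 12-weeks, at 92.7, 114.6 and 309.6 in treated and 66.9, 93.3 and 127.7 in WT mice, and the difference was 0.68 on both TPM scales (adjusted p = 0.234 and 0.258) and 1.01 with total counts (adjusted p = 0.0920), not called with any of them. The call at 12-weeks was lost without treated mouse 10 or 11 or without WT mouse 2 or 3, with adjusted p between 0.0614 and 0.161. The call at 34-weeks was lost without treated mouse 9 or 12 or without WT mouse 2 or 3, with adjusted p between 0.0733 and 0.307, and was also lost when only these 2 groups were fitted (adjusted p = 0.463). Treated mouse 11 at 12-weeks and treated mouse 12 at 34-weeks had the highest Fabp5 of their groups, and the highest summed TPM of lipid-associated macrophage markers too, at 285.9 and 217.4. Summed TPM of macrophage and Kupffer cell markers was highest in treated mouse 10 at 12-weeks (1121, against 775.5 in mouse 11) and in mouse 12 at 34-weeks (815.7). Lyz2 led these sums, at treated group means of 552.2 and 211.3 TPM. Mouse 12 at 34-weeks also held 2282 TPM of neutrophil markers, against 6.21 and 12.1 in the other treated mice of that time point. The part of these cells in Fabp5 was not tested.

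Fabp4 was 2.88-fold higher in treated than in WT mice at 12-weeks (log2 fold change 1.53, SE 0.332, adjusted p = 0.00511) with no overlap, and its difference at 34-weeks was -0.05 (95% confidence interval -0.74 to 0.65, adjusted p = 0.995), of no fixed sign. On the log2(TPM + 0.1) scale the difference at 12-weeks was 0.82 and under the fold threshold. Summed TPM of lipid-associated macrophage markers ranged from 123.5 to 285.9 in treated mice at 12-weeks and from 130.4 to 217.4 at 34-weeks, above all WT mice. Of its 8 markers 7 were called higher than in WT mice at the earlier time point and 4 at the later, and of the 12 macrophage and Kupffer cell markers 6 and none, with none of either list called lower. The part of these cells in the higher Fabp4 was not tested.

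Fabp7 stood at 9.24, 11.6 and 12.2 CPM in treated mice at 12-weeks, above all WT mice, and was 3.27-fold higher (log2 fold change 1.71, SE 0.515, adjusted p = 0.0186). The call was lost without treated mouse 10 (adjusted p = 0.0705) or WT mouse 3 (adjusted p = 0.0831), and with total counts (adjusted p = 0.0529). The part of macrophages and Kupffer cells in this difference was not tested. At 34-weeks Fabp7 stood at 2.19, 2.90 and 5.91 CPM, within the range of untreated Lipa-/- mice, and differed from WT mice by 0.01 (95% confidence interval -1.06 to 1.08, adjusted p = 1), with a sign that turned without 1 mouse.

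The remaining genes did not pass in treated against WT mice. Slc27a1 differed by 0.12 at 12-weeks (95% confidence interval -0.41 to 0.66, adjusted p = 0.721) and by 0.09 at 34-weeks (-0.42 to 0.60, adjusted p = 0.992), and Slc27a2 by -0.03 (-0.56 to 0.50, adjusted p = 0.932) and -0.18 (-0.71 to 0.35, adjusted p = 0.975). Fabp1 differed by 0.23 at 12-weeks (-0.47 to 0.93, adjusted p = 0.598) and by -0.74 at 34-weeks (-1.45 to -0.04, adjusted p = 0.819). The signs for Slc27a1, Slc27a2 and Fabp1 at 12-weeks turned under other scalings or without 1 mouse. In TPM, Slc27a2 at 12-weeks lay below all WT mice, at 97.7, 215.5 and 219.4 in treated and 259.1, 272.4 and 414.9 in WT mice. Fabp1 at 34-weeks did so too, at 6958, 7403 and 10850 TPM in treated and 11798, 12373 and 14049 TPM in WT mice, while in CPM these groups overlapped. Fabp2 lay above all WT mice at 12-weeks (log2 fold change 0.81, adjusted p = 0.0905) and below all WT mice at 34-weeks (-1.20, SE 0.369, adjusted p = 0.449). Slc27a4 lay below all WT mice at 12-weeks (-0.90, SE 0.227, adjusted p = 0.00903), under the fold threshold, and was called lower with total counts (-1.29) and without treated mouse 12 (-1.11).

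Within WT and within Lipa-/- mice, none of the 8 genes was called between the time points by edgeR, where 0.323% and 0.495% of all genes were. Unadjusted p was below 0.05 for 3 genes in WT mice and for 4 in Lipa-/- mice, and DESeq2 called 1 and 2. For these counts no share of all genes is given, so they cannot be set against the edgeR shares. Fabp5 in WT mice was lower at 34-weeks in every mouse (log2 fold change -2.12, SE 0.472, adjusted p = 0.0742), and was called without WT mouse 1 of the later time point (-2.53, adjusted p = 0.0426). In Lipa-/- mice Fabp1 differed by -1.31 (adjusted p = 0.0688), Fabp2 by -1.37 (adjusted p = 0.0882) and Slc27a2 by -1.02 (adjusted p = 0.0651), each without overlap. Slc27a2 was called without Lipa-/- mouse 9 of 12-weeks (-1.22, adjusted p = 0.0380). In a test of whether the difference between Lipa-/- and WT mice itself differed between the time points, edgeR called none of the 8 genes, against 0.0619% of all genes. Unadjusted p was below 0.05 for 4 of them and DESeq2 called 2, Fabp2 and Slc27a2, again without a share of all genes beside it. The edgeR values were -2.32 (SE 0.527, adjusted p = 0.117) for Fabp2 and -1.34 (SE 0.357, adjusted p = 0.173) for Slc27a2.

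In treated mice 3 of the 8 genes were called between the time points, as were 32% of all genes, all 3 lower at 34-weeks. The log2 fold change was -1.06 for Fabp2 (SE 0.368, adjusted p = 0.0281), -1.55 for Fabp4 (SE 0.332, adjusted p = 0.00221) and -1.57 for Fabp7 (SE 0.510, adjusted p = 0.0198). These values rest on the scaling of the treated group at 12-weeks. With total counts they were -0.41, -0.90 and -0.91, not called, and on that scale Slc27a1 (1.20) and Slc27a4 (1.53) were called higher at 34-weeks instead. Fabp2 lost its call without treated mouse 10 of 12-weeks or mouse 9 or 12 of 34-weeks (adjusted p between 0.0606 and 0.124), and Fabp7 without mouse 10 of 12-weeks or mouse 9 or 11 of 34-weeks (adjusted p between 0.0606 and 0.0893). Slc27a4 was 0.91 higher at 34-weeks (adjusted p = 0.00474), and passed the fold threshold without treated mouse 11 or 12 of 12-weeks or mouse 12 of 34-weeks, at 1.01 to 1.12. Fabp1 was called lower without mouse 11 of 34-weeks (-1.06, adjusted p = 0.0330), and Fabp5 without mouse 12 of 34-weeks (-1.57) or mouse 12 of 12-weeks (-1.24). By edgeR the difference between treated and WT mice differed between the time points for Fabp2 and Fabp4, 2 of 8 genes, where 18.4% of all genes were called. Neither was called with only the groups compared or on the log2(TPM + 1) scale. Both calls were also lost with some single mice left out, and time point and study code cannot be told apart.

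The makeup of each family was read from TPM, which are per length. In WT mice Fabp1 made up 97.7% ± 0.293 (SD, n = 3) of the summed TPM of the binding protein family at 12-weeks and 97.8% ± 0.472 at 34-weeks. In Lipa-/- mice it made up 61.9% ± 7.96 and 46.5% ± 5.17. Fabp5 made up 0.982% in WT and 31.7% ± 8.91 in Lipa-/- mice at 12-weeks and 0.191% and 42.2% ± 3.25 at 34-weeks, while Fabp4 stood at 4.95% and 9.93% in Lipa-/- mice. In treated mice Fabp1 made up 95.4% ± 1.89 and 96.3% ± 1.58. The summed TPM of the family was 9998 ± 1163 in WT, 3429 ± 716.4 in Lipa-/- and 7769 ± 2746 in treated mice at 12-weeks, and 13031 ± 1181, 2468 ± 494.7 and 8709 ± 2104 at 34-weeks. A family in which 1 gene held nearly all transcripts in WT liver was thus shared mainly by Fabp1 and Fabp5 in Lipa-/- liver.

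**Figure D3:**
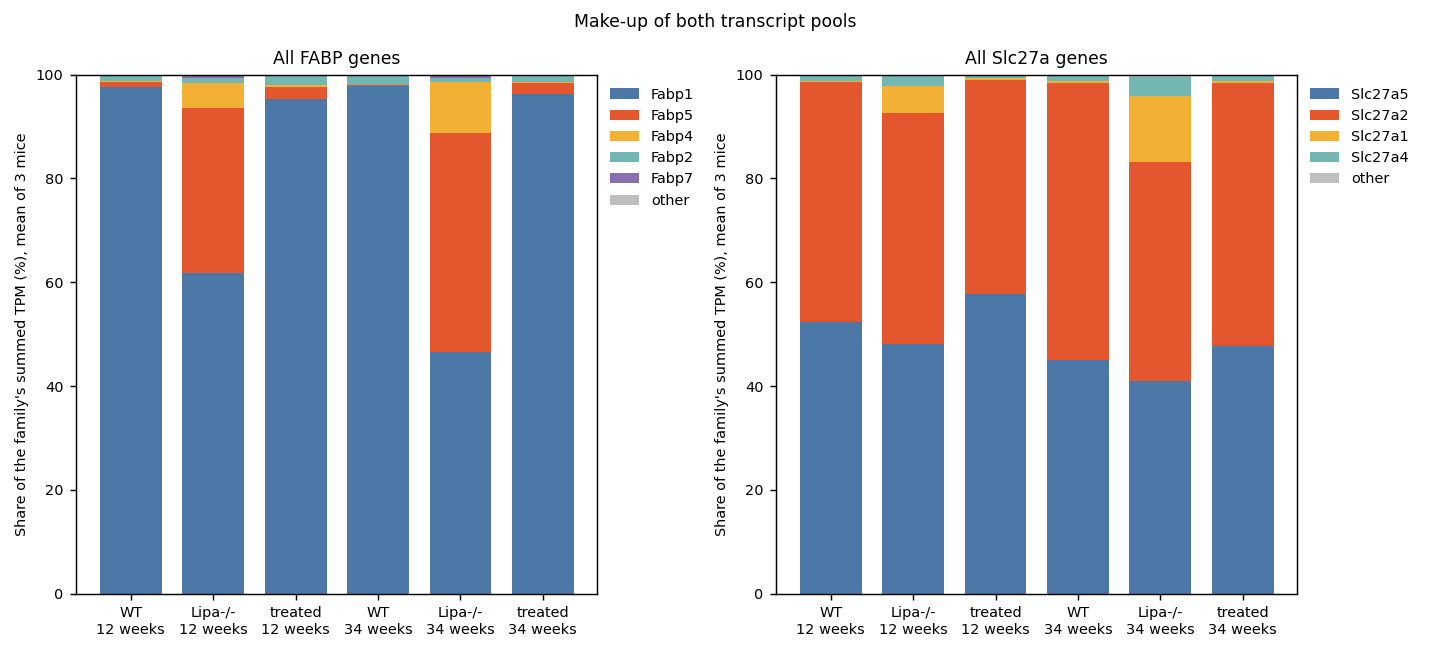
Share of each gene in the summed TPM of the fatty acid binding protein family and of the fatty acid transport protein family, in percent, as the mean of 3 mice per group. Fabp1 fills 97.7% of the first bar in WT mice at 12-weeks and 46.5% in Lipa-/- mice at 34-weeks, where Fabp5 fills 42.2%.

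Among the transport proteins Slc27a2 and Slc27a5 together held most of the summed TPM in every group. Slc27a2 made up 46.2% in WT, 44.6% in Lipa-/- and 41.3% in treated mice at 12-weeks and 53.2%, 42.0% and 50.7% at 34-weeks. Slc27a1 made up 0.225% in WT and 5.14% ± 1.84 in Lipa-/- mice at 12-weeks and 0.325% and 12.8% ± 3.54 at 34-weeks, and stood at 0.247% and 0.370% in treated mice. These shares are compositional, so a lower value for 1 gene raises the others.

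Ordered by TPM, WT mice at 12-weeks held Fabp1 (9766 ± 1164), Slc27a2 (315.5 ± 86.4), Fabp2 (118.2 ± 21.8), Fabp5 (96.0 ± 30.5), Fabp4 (12.6 ± 2.61), Slc27a4 (7.78 ± 1.74), Fabp7 (4.95 ± 0.832) and Slc27a1 (1.53 ± 0.427). Fabp2 and Fabp5 overlapped in that order. In Lipa-/- mice at 34-weeks the order was Fabp1 (1137 ± 187.8), Fabp5 (1049 ± 256.1), Fabp4 (250.5 ± 88.2), Slc27a2 (104.4 ± 6.28), Slc27a1 (32.0 ± 10.5), Fabp2 (14.8 ± 3.07), Fabp7 (12.1 ± 7.48) and Slc27a4 (9.23 ± 1.59). Fabp1 overlapped Fabp5 there, Fabp2 overlapped Fabp7, and Fabp7 overlapped Slc27a4. Among all genes of a mouse, Fabp1 ranked between 9 and 19 by TPM in WT mice and between 41 and 142 in Lipa-/- mice, and Fabp5 between 774 and 3984 and between 124 and 206.

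Of the other members of both families, Fabp3, Slc27a3 and Slc27a5 had enough reads to be tested, 3 of 8. Slc27a5, a hepatocyte transport protein that also activates bile acids, stood at 807.0 ± 40.0 CPM in WT and 285.3 ± 56.8 CPM in Lipa-/- mice at 12-weeks and at 751.9 ± 86.2 and 129.1 ± 29.3 CPM at 34-weeks. It was called lower in Lipa-/- mice at both time points (log2 fold change -1.50, adjusted p = 4.23e-05, and -2.54, adjusted p = 2.96e-07), and in treated mice its difference from WT was 0.14 and -0.03. Fabp3, the heart type, held 0 to 2 reads per WT mouse and 32 to 102 reads per Lipa-/- mouse at 12-weeks, and 0 to 3.47 against 34 to 74 reads at 34-weeks (adjusted p = 6.25e-05 and 5.74e-05). Slc27a3 was not called, with log2 fold changes of -0.12 (adjusted p = 0.873) and 0.26 (adjusted p = 0.700) and a sign at 12-weeks that turned to 0.34 with total counts.

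A wider list of 38 genes of fatty acid uptake, acyl-CoA formation and binding, and nuclear receptor partners, of which 31 were tested, holds these 3. In Lipa-/- against WT mice 4 were called higher and 13 lower at 12-weeks, with a median log2 fold change of -0.86 against 0.02 over all genes tested, and 3 higher and 16 lower at 34-weeks, with a median of -1.44 against -0.03. Of all genes tested, 20.2% were called higher and 9.06% lower at 12-weeks, and 20.5% and 15.7% at 34-weeks. With total counts 8 in place of 17 of them were called at 12-weeks. In treated against WT mice 1 was higher and 7 lower at 12-weeks, and edgeR called none at 34-weeks, where 6 had an unadjusted p below 0.05 and DESeq2 called 1. By edgeR the shares of all genes were 13.6% higher and 12% lower at 12-weeks, and 0.131% and 0.0895% at 34-weeks. None are given for unadjusted p or DESeq2. In treated against untreated Lipa-/- mice 10 were higher and 6 lower at 12-weeks and 17 higher and 3 lower at 34-weeks. Here 16.2% of all genes were higher and 25.3% lower at 12-weeks, and 12.8% and 18.6% at 34-weeks. The median log2 fold change of the list was 0.31 against -0.19 over all genes at 12-weeks, and 1.31 against 0.03 at 34-weeks.

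Acsl1, a long-chain acyl-CoA synthetase, was 4.56-fold lower in Lipa-/- mice at 12-weeks (log2 fold change -2.19, adjusted p = 0.000162) and 6.81-fold lower at 34-weeks (-2.77, adjusted p = 1.53e-05). Scp2, which encodes sterol carrier protein and a peroxisomal thiolase, was 3.58-fold lower (-1.84, adjusted p = 8.13e-05) and 6.33-fold lower (-2.66, adjusted p = 2.04e-06). Mfsd2a, a transporter of lysophosphatidylcholine, was lower too (log2 fold change -2.63, adjusted p = 0.0191, and -4.83, adjusted p = 0.000413), with an SD of 33.3 CPM around a mean of 30.5 CPM among WT mice at 12-weeks. Without WT mouse 3 its difference at 12-weeks was -1.20 and not called, and it was not called without Lipa-/- mouse 8 (adjusted p = 0.0690) or with only the groups compared (adjusted p = 0.0964) either.

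Cd36, a fatty acid receptor of macrophages and other cells, was 3.79-fold higher in Lipa-/- mice at 12-weeks (log2 fold change 1.92, adjusted p = 0.00116) and differed by -0.31 at 34-weeks (adjusted p = 0.531), a sign that turned with total counts (0.28). WT mice themselves held 30.0 ± 18.2 CPM of Cd36 at 12-weeks and 139.4 ± 51.4 CPM at 34-weeks, against 113.7 ± 38.7 and 112.1 ± 27.3 CPM in Lipa-/- mice. Pparg, the nuclear receptor that drives adipocyte formation, was 2.70-fold higher at 12-weeks (1.44, adjusted p = 0.0101) and differed by 0.23 at 34-weeks (adjusted p = 0.658). Here too the WT level differed, at 5.93 ± 1.64 CPM at 12-weeks and 14.1 ± 5.87 CPM at 34-weeks, against 16.0 ± 3.37 and 16.6 ± 2.13 CPM in Lipa-/- mice. Rxrg, a retinoid X receptor and partner of such receptors, was lower at 12-weeks (log2 fold change -1.02, adjusted p = 0.0192), and at 34-weeks (-2.68, adjusted p = 8.66e-06). Its call at 12-weeks was lost without Lipa-/- mouse 8 or 9, with upper quartile factors, with only the groups compared, with total counts (-0.54, adjusted p = 0.198) and on both TPM scales (-0.63 and -0.48). Cav1, a coat protein of caveolae, was called lower at 12-weeks (-1.31, adjusted p = 0.0275) and higher at 34-weeks (1.30, adjusted p = 0.0246). Its call was lost in 10 of 16 alternatives at 12-weeks and in 6 of 16 at 34-weeks, without WT mouse 2 or 3 or Lipa-/- mouse 5 or 8 (adjusted p between 0.0600 and 0.112) and without WT mouse 2 or 3 or Lipa-/- mouse 4 or 5 (between 0.0504 and 0.0740).

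**Figure D4:**
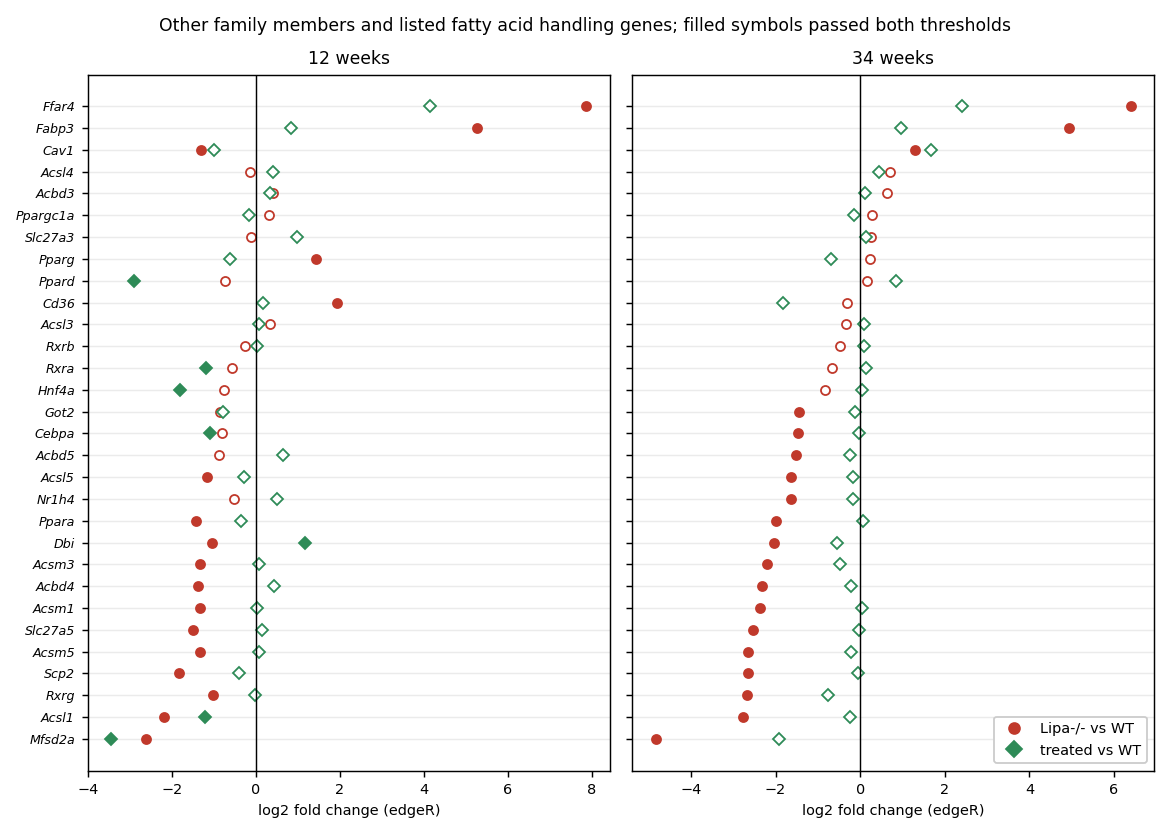
Log2 fold change against WT mice for tested genes of the wider list, in Lipa-/- mice (circles) and treated mice (diamonds), with 1 panel per time point; filled symbols passed both thresholds and no error is drawn. Acsl1 and Scp2 lie at -2.19 and -1.84 in Lipa-/- mice at 12-weeks, and no diamond is filled at 34-weeks.

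The genes most like each of the 8 were found by the mean absolute difference of centred log2 CPM over the 18 mice, among 12598 genes that averaged 1 CPM or more. Fabp1 and Fabp2 were among the 2 nearest genes of each other (0.31), beside 4930579F01Rik for Fabp1 (0.26) and Adh4 for Fabp2 (0.29). Slc27a2 was nearest to Dpyd (0.14) and Scp2 (0.15), and Slc27a4 to Pgghg (0.11) and Pdzk1 (0.13). Fabp4 was nearest to Klf6 (0.26) and Cxcl16 (0.28), Slc27a1 to Psap (0.19) and Tgfb1 (0.21), and Fabp7 to Klrk1 (0.33) and Cd5l (0.39). Fabp5 had no gene as near, with Gpr160 at 0.54 and Dok1 at 0.59. The mean absolute deviation of the 8 genes from their own mean was 0.42 for Slc27a4, 0.77 for Fabp7 and 0.89 to 1.59 for the others. Mice of 1 group are not independent points in this measure, since group differences enter it.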

How the data were processed

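Poly-A RNA of liver from 18 male mice was measured. The deposited estimated counts, TPM and effective lengths per gene were made by the authors with Salmon and tximport on Ensembl cDNA of GRCm39, and R 4.3.0 and DESeq2 1.40.1 stand in the submitters' processing notes. Of the 4 deposited tables, 1 holds the authors' own fold changes and p-values and was not used. All columns matched a sample.

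Estimated counts, of which 19.4% were not whole, were rounded. Genes with more than 100 reads over all mice were fitted in edgeR 4.0.16 (R 4.3.3) with TMM factors and 6 group means, and p-values of 11 comparisons were Benjamini-Hochberg adjusted over 14533 genes. Called means adjusted p below 0.05 and absolute log2 fold change over 1, after the study's thresholds. TPM were compared on log2(TPM + 0.1) and log2(TPM + 1) scales in limma 3.58.1, as alternatives beside DESeq2 1.42.0, other scalings, filters and thresholds, and leaving out each mouse. The fit was tested on simulated data. Groups hold 3 separate mice, and depth and replicate number limit precision: estimated counts below about 100 reads per mouse, as for Slc27a1 and Fabp7, carry the largest counting error.

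The 8 genes and the lists were chosen with earlier results of these data known. Named beside the 8 were the tested members of both families, the 3 called genes of the wider list with the largest change in each direction in Lipa-/- against WT mice at either time point (mean of at least 1 CPM), and the 2 genes most like each of the 8. Promoters came from RefSeq (GRCm38.p6) and gene positions from the GRCm39 annotation. The regulators named in the closing section lie outside this rule. The values of 1 gene of the wider list, which enters its counts, are not reported here.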

Additional observations from a re-analysis of the deposited data

Results flagged for a closer look

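For Fabp2 and Fabp4 the difference between treated and WT mice differed between the time points in a test of that difference itself. These are 2 of the 8 genes, in a test in which 18.4% of all genes were called. The log2 fold change of treated against WT mice was 0.81 at 12-weeks and -1.20 at 34-weeks for Fabp2, which gives an interaction of -2.01 (SE 0.520, edgeR adjusted p = 0.0259). It was 1.53 and -0.05 for Fabp4, which gives an interaction of -1.57 (SE 0.464, edgeR adjusted p = 0.0323). The call for Fabp2 was lost without WT mouse 1 or 3 or treated mouse 10 of 12-weeks, or without WT mouse 1 or treated mouse 9 of 34-weeks (adjusted p between 0.0539 and 0.0748). The call for Fabp4 was lost without any of these 5 mice or treated mouse 12 of 34-weeks (adjusted p between 0.0516 and 0.0992). On the log2(TPM + 0.1) scale the interactions were -1.13 and -0.81, and with total counts that of Fabp4 was -1.08, not called. Neither gene was called with only the groups compared or on the log2(TPM + 1) scale. Time point and study code cannot be told apart.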

How the results depend on the processing

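In Lipa-/- against WT mice, Fabp1, Fabp2, Fabp4, Fabp5 and Slc27a1 kept direction and call in all 16 alternatives at both time points, and so did Slc27a2 at 34-weeks. The counts of called genes that moved past 1.5 times were these. With total counts the wider list gave 8 calls at 12-weeks in place of 17, and 9 with both TPM scales. For treated against WT mice at 12-weeks, the 8 genes gave 1 call in place of 3 with both TPM scales and at adjusted p below 0.01, and 1 to 4 with 1 mouse left out (1 without treated mouse 10 or WT mouse 3). The wider list gave 5 in place of 8 at adjusted p below 0.01, and as few as 3 without WT mouse 3. At 34-weeks the 8 genes gave 0 in place of 1 with only the groups compared and at adjusted p below 0.01, and 0 to 1 with 1 mouse left out. The wider list gave 1 in place of 0 with DESeq2 and without the filter, and 0 to 1 with 1 mouse left out. For treated against Lipa-/- mice at 34-weeks it gave 13 in place of 20 on the log2(TPM + 1) scale. Between time points the 8 genes gave 1 in place of 0 in WT mice with DESeq2 and without the filter (0 to 1 with 1 mouse left out), 2 with DESeq2 and 0 to 1 with 1 mouse left out in Lipa-/- mice, and 1 in place of 3 at adjusted p below 0.01 and 1 to 5 with 1 mouse left out in treated mice. The interaction of Lipa-/- and WT gave 2 with DESeq2 and 1 on the log2(TPM + 1) scale in place of 0. That of treated and WT gave 1 with total counts and on the log2(TPM + 0.1) scale and 0 with only the groups compared, on the log2(TPM + 1) scale and at adjusted p below 0.01, in place of 2, and 0 to 2 with 1 mouse left out. The cause was not tested.

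Signs turned for differences that were not called. With total counts, log2(TPM + 0.1) and log2(TPM + 1) in turn, Slc27a3 in Lipa-/- against WT mice at 12-weeks was 0.34, 0.19 and 0.064, and Cd36 at 34-weeks was 0.28, 0.43 and 0.42. In treated against WT mice at 12-weeks Fabp1 was -0.17, -0.47 and -0.47 and Slc27a1 was -0.29, -0.56 and -0.34, and at 34-weeks Fabp4 was 0.053, 0.010 and 0.0094, with 0.0092 under upper quartile factors. In treated against Lipa-/- mice at 12-weeks Fabp7 was -0.73, -0.77 and -0.74, and between the time points in treated mice Fabp1 was 0.23 on both TPM scales. With 1 mouse left out, Lipa-/- against WT mice gave -0.30 to 0.019 for Slc27a3 at 12-weeks, -0.15 to 0.53 for Fabp7 at 34-weeks and -0.029 to 0.58 for Pparg at 34-weeks. Treated against WT mice gave -0.072 to 0.35 for Fabp1, -0.16 to 0.27 for Slc27a1 and -0.28 to 0.095 for Slc27a2 at 12-weeks, and -0.17 to 0.061 for Fabp4, -0.52 to 0.35 for Fabp7 and -0.12 to 0.34 for Slc27a1 at 34-weeks. Treated against Lipa-/- mice gave -0.26 to 0.52 and -0.73 to 0.17 for Fabp7.

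Mouse numbers recur between the time points, but livers were taken at sacrifice, so same-numbered mice are different animals. Their deviations correlated between -0.25 and 0.46 over 6 pairs, which cannot tell whether such mice share anything besides the number. With the mouse number as a replicate block, 1 of the 8 genes was called in place of 0 between the time points in Lipa-/- mice (Fabp1, -1.29), Fabp7 in Lipa-/- against WT mice at 12-weeks was 1.36 and no longer called, and Fabp7 in treated against WT mice at 34-weeks was -0.022.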

Other observations

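Of 11 nuclear receptors and partner regulators of the wider list, 5 were called lower and none higher in treated than in WT mice at 12-weeks, where 12% of all genes were called lower. Of these, 4 are given here, named after their values had been seen. Hnf4a, a master regulator of hepatocyte genes, had a log2 fold change of -1.81 (SE 0.313, adjusted p = 0.00229) and Ppard, a fatty acid receptor, of -2.92 (SE 0.638, adjusted p = 0.00523). Both calls held in all 16 alternatives, with adjusted p up to 0.0241, and at 34-weeks the genes differed by 0.04 and 0.85 and were not called. Rxra (-1.20, adjusted p = 0.0214) lost its call without treated mouse 11 (adjusted p = 0.0595) or WT mouse 3 (adjusted p = 0.132). Cebpa (-1.09, adjusted p = 0.00967) fell under the fold threshold with DESeq2 (-0.94), with length offsets in edgeR (-0.98) and without treated mouse 10 (-0.89) or WT mouse 3 (-0.93). In the same mice none of the 8 genes was called lower than in WT mice on the TMM scale. Slc27a4 lay below all WT mice there (-0.90, adjusted p = 0.00903), and Slc27a2 did so in TPM. The part of these regulators in the 8 genes was not tested.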
